A study of Mus musculus with 14 samples.

Results

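E12 endoderm was compared with E12 mesenchyme of the mouse small intestine, 2 layers separated from the same fetal organ at embryonic day 12 (E12). The members are the 6 arrays of a value table of their own: 3 arrays whose source is labelled endoderm and 3 labelled mesenchyme, out of 14 arrays in the whole series. Per the labels, the intestines were digested with collagenase, the layers were dissected apart, and each of the 6 samples pools 10 to 12 fetuses. The labels give neither a strain nor a sex for these fetuses, and no genotype or treatment. All probe sets annotated to exactly 1 gene symbol were used, which gave 12394 genes, of which 9442 were above the lower signal range and were tested. A separate pair, 1 endoderm and 1 mesenchyme array from pools of 35 fetuses, was measured with adult crypts and villi in another table and serves only as a check of direction.

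At this stage the gut is a tube. The inner endoderm is a proliferating epithelium that has not yet formed villi, and it will give rise to the absorptive and secretory cells of the adult lining. The surrounding mesenchyme builds connective tissue and smooth muscle, and it also contains blood vessels, blood cells and neural crest cells that are colonising the gut as the future enteric nervous system. The layers are known to instruct each other through secreted signals such as hedgehog, BMP, PDGF and Wnt proteins. The comparison asks which genes are set apart in the 2 layers before the adult epithelium exists.

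Signals are log2 values, so a difference of 1 is a factor of 2, and every difference below is endoderm minus mesenchyme. Values by array are given in the order of replicates 2, 3 and 4. A mean below 4.74, the 30th percentile of the table, is called near background here, and a difference against it is measured from the bottom of the signal range. A gene is called at a limma adjusted p under 0.05. Of the 9442 genes tested, 5010 were called, which is 53.1% of them: 2615 (27.7%) were higher in endoderm and 2395 (25.4%) in mesenchyme. The arrays of the 2 layers did not overlap for 5852 genes (62.0%). A call is therefore the usual state of a gene here, and counts in the lists below are read against these shares and against the median difference of all tested genes, 0.03. Centring each array on its median instead moved that median to 0.147 and the share of calls that were higher in endoderm from 52.2% to 62.7%.

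Large differences were more often towards mesenchyme. At least 2-fold differences were called for 831 genes higher in endoderm and 1018 higher in mesenchyme. At least 16-fold differences were called for 75 and 114, and at least 64-fold differences for 5 and 19. Pools of 1 layer resembled each other closely: Pearson's r across genes was 0.985 to 0.996 between endoderm arrays and 0.991 to 0.995 between mesenchyme arrays, against 0.794 to 0.819 between layers. Endoderm replicate 2 stood apart on 2 of 3 array controls of RNA quality. Its 3′ minus 5′ signal gap was 0.97 for Gapdh and 1.48 for beta-actin, against 0.16 to 0.30 and 0.39 to 0.65 in the other 5 arrays. For the transferrin receptor control its gap (1.88) was not the widest, since endoderm replicates 3 and 4 were at 2.17 and 2.12. Without it, 5242 genes were called, 2647 higher in endoderm and 2595 in mesenchyme.

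**Figure D1:**
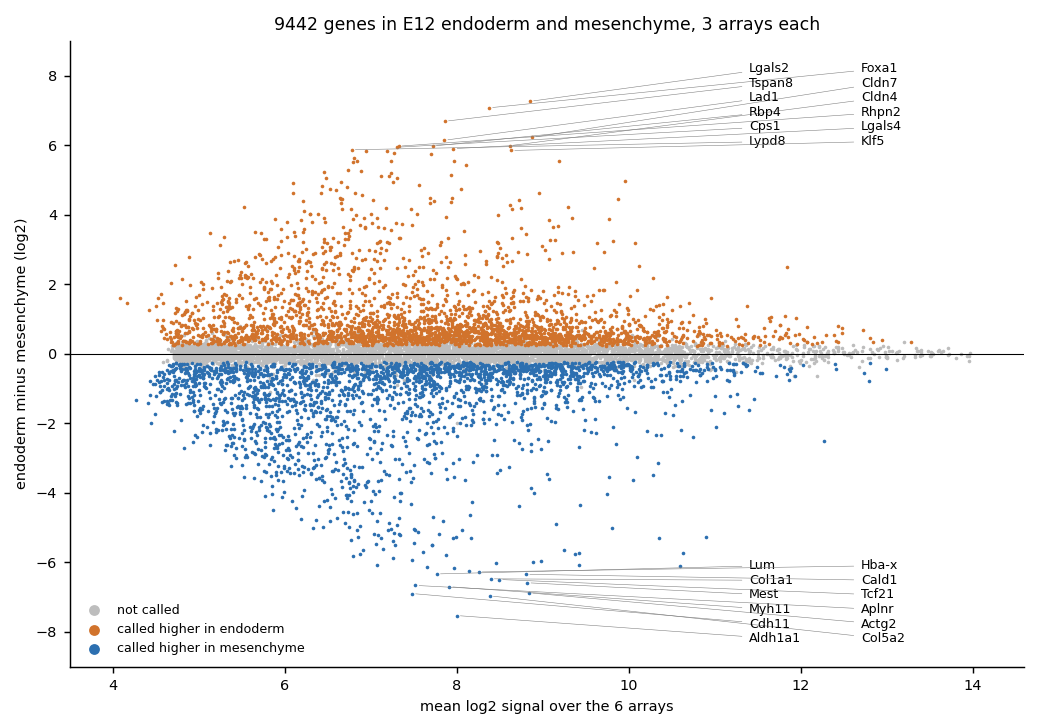
Difference between the layers (endoderm minus mesenchyme, log2, y axis) against the mean log2 signal over the 6 arrays (x axis) for the 9442 tested genes, with each point a gene. Genes called higher in endoderm (2615, orange) and in mesenchyme (2395, blue) fan out on both sides, and the 12 largest of each, named, lie at 5.84 or above in endoderm and at -6.28 or below in mesenchyme.

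The labels fitted the defining markers of the layers. Over 7 epithelial markers (Epcam, Cdh1, Krt8, Krt18, Krt19, Cldn6 and Cldn7) the mean log2 signal was 11.54, 11.67 and 11.51 in endoderm and 6.06, 6.59 and 6.73 in mesenchyme. Over 7 mesenchymal markers (Col1a1, Col1a2, Col3a1, Pdgfra, Foxf1, Twist1 and Vim) it was 5.86, 6.14 and 6.34 in endoderm and 10.59, 10.49 and 10.45 in mesenchyme. The groups were far apart for both sets, but none of the 7 epithelial markers was near background in mesenchyme and only Pdgfra and Twist1 of the mesenchymal ones were near background in endoderm. The epithelial mean was lowest in mesenchyme replicate 2, and the mesenchymal mean was highest in endoderm replicate 4. Whether this low signal is carried-over tissue was not tested, and in such bulk samples fewer cells of a type and less RNA per cell cannot be told apart.

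Mesenchyme samples held other cell types of the gut wall. Mean log2 signal of 5 endothelial markers was 7.71 to 7.88 in mesenchyme and 4.41 to 4.51 in endoderm, where 4 of them were near background. The 5 enteric neural crest markers averaged 8.40 to 8.64 and 4.91 to 5.08, and the 5 erythroid markers 9.98 to 10.11 and 5.83 to 5.91. Macrophage markers averaged 5.69 to 5.94 and 4.49 to 4.55. The mean of 5 markers of the neighbouring pancreas and liver buds was low in both layers, at 4.94 to 5.05 in mesenchyme and 4.59 to 4.66 in endoderm. Of these markers, Alb and Ptf1a were near background in both. Single genes of these buds still differed: of 10 tested in a longer list, 2 were higher in endoderm and 7 were not called. The 1 higher in mesenchyme was Cpa1, a pancreas gene (-2.11, adjusted p = 3.63e-06). A difference towards mesenchyme is thus a difference towards this mixture.

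Among the genes with the largest differences, Lgals2, a galectin of the gut epithelium, led endoderm. Its log2 signal was 12.55, 12.44 and 12.45 in endoderm and 4.34, 5.49 and 5.84 in mesenchyme, a difference of 7.26 ± 0.33 (SE, 3 arrays a layer) or 153-fold, with an adjusted p of 4.22e-07. The endoderm arrays were close together and the mesenchyme arrays were spread, with replicate 2 lowest. Foxa1, a pioneer transcription factor of endoderm, followed at 7.07 ± 0.43, with 11.74, 12.01 and 11.98 against 3.74, 4.98 and 5.80, again lowest in mesenchyme replicate 2. Tspan8, a tetraspanin of the epithelial surface, differed by 6.68, and its 3 other probe sets by 2.61 to 4.32. The next were the tight junction genes Cldn7 (6.22) and Cldn4 (5.98), Lad1 (6.14), an anchoring filament component, Rbp4 (5.97), the retinol carrier of plasma, Rhpn2 (5.97), Cps1 (5.94), the first enzyme of the urea cycle, Lgals4 (5.90), a galectin, Lypd8 (5.86) and Klf5 (5.84), a Krüppel-like factor.

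The mesenchymal extreme was Aldh1a1, an enzyme that makes retinoic acid. Its log2 signal was 3.98, 4.23 and 4.49 in endoderm, near background, and 11.83, 11.73 and 11.74 in mesenchyme, a difference of -7.53 ± 0.13 or 185-fold. Genes of matrix and muscle filled most of the other places: Col5a2 (-6.97), a fibrillar collagen, Actg2 (-6.88), enteric smooth muscle actin, Myh11 (-6.70), smooth muscle myosin, Col1a1 (-6.48), Cald1 (-6.35), caldesmon, and Lum (-6.34), a collagen-binding proteoglycan. The rest were Cdh11 (-6.90), a cadherin of mesenchyme, Aplnr (-6.67), the apelin receptor, the imprinted gene Mest (-6.59), Tcf21 (-6.50), a transcription factor of visceral mesenchyme, and the embryonic globin Hba-x (-6.28). A second probe set of Myh11 differed by only -0.51 and one of Aplnr by -2.62. Such gaps were common: of 342 genes considered by name, 160 had other probe sets, and for 70 of these another probe set differed by more than 1 log2 unit from the one used, as for Acta2 (-0.70), Ntn1 (-0.77), Slit2 (-0.66) and Fgfr4 (0.16 to 1.74). With the median of a gene's probe sets, among genes described below, Igf1 differed by -2.68, Csf1r by -1.15, Sox10 by -0.77 and Itga9 by -0.37. For 10 called genes another probe set had the opposite sign, at no more than 0.17 in size, among them Zeb1 (0.04), Ncam1 (0.10) and Tgfbr2 (0.17).

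The share called and the median difference separated the 32 gene lists used here into 3 kinds, as the bars by list show. Epithelial adhesion, polarity, enterocyte and endoderm regulator genes were mostly higher in endoderm, smooth muscle, matrix, Hox, neural crest and endothelial genes were mostly higher in mesenchyme, and the Wnt, FGF, TGF-beta and Eph lists and the cell cycle had calls in both directions or few calls. BMP, Notch and hedgehog lists had most of their calls towards mesenchyme. The lists were chosen with earlier results of these data known, so their counts describe the layers and are not tests.

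**Figure D2:**
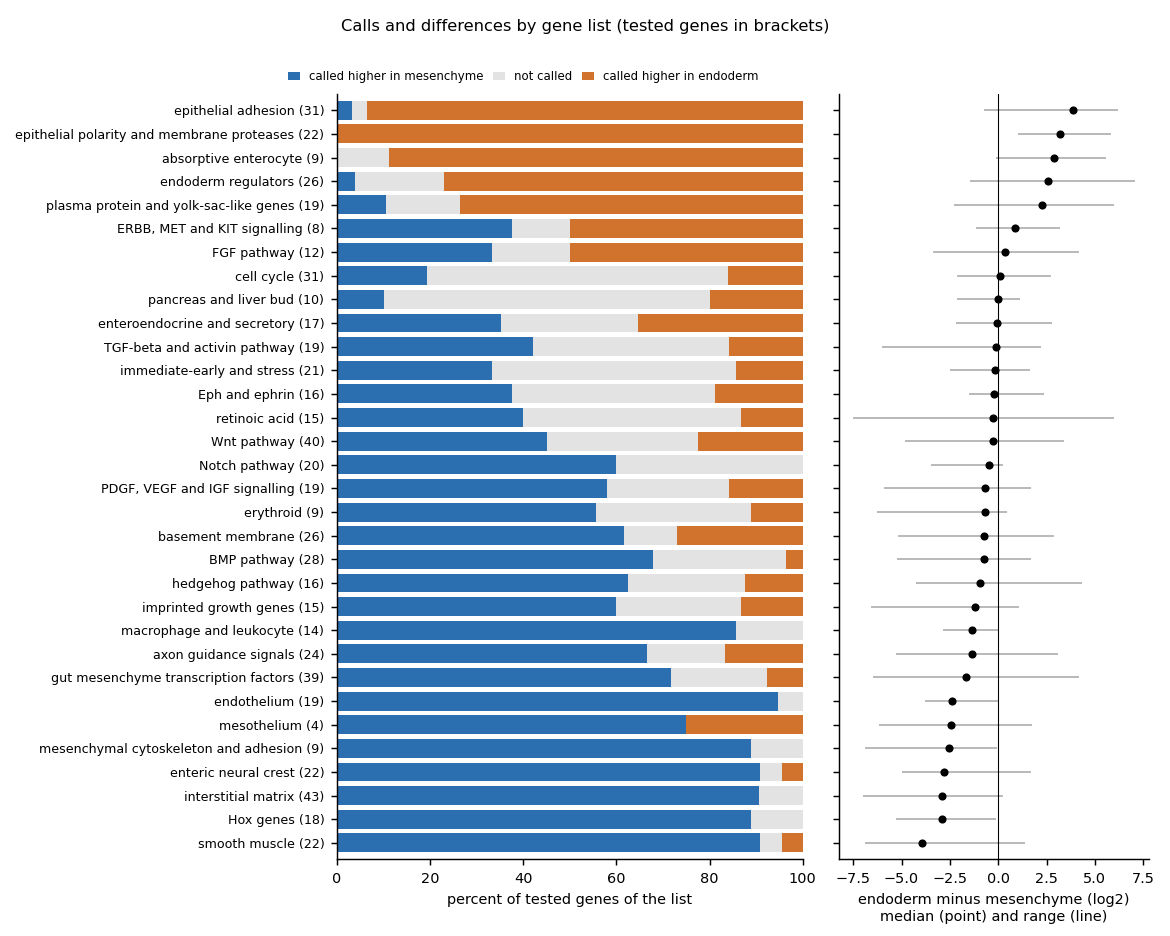
Left, percent of the tested genes of each of 32 lists called higher in mesenchyme (blue), not called (grey) and called higher in endoderm (orange), with the number of tested genes in brackets. Right, the median (point) and range (line) of the endoderm minus mesenchyme differences in log2. Medians run from 3.89 for epithelial adhesion to -3.95 for smooth muscle, against 0.03 for all tested genes.

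The transcription factors of endoderm were mostly higher in that layer. Of 26 tested endoderm regulators, 20 were called higher in endoderm, 1 in mesenchyme and 5 were not called, with a median difference of 2.59. All 6 Foxa and Gata factors were among the 20. Gata4, a zinc finger factor of foregut and midgut, gave 8.91, 8.91 and 8.82 in endoderm and 4.34, 4.31 and 4.66 in mesenchyme, near background, a difference of 4.44 ± 0.11. Foxa2 (2.66), Foxa3 (2.73), Gata5 (2.09) and Gata6 (2.77) were higher by less, and Gata6 kept a mesenchymal signal of 6.66 to 7.50. For each of the 6 genes the arrays did not overlap, but the same was true of 62.0% of all tested genes and 4973 of the 5010 called.

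The Hnf, Cdx and other endoderm factors, which include those that specify the intestine, were less uniform. Of 11 tested, 6 were higher in endoderm, 1 in mesenchyme and 4 were not called, with a median of 0.78. Cdx2, the homeobox gene of intestinal identity, gave 10.37, 9.54 and 9.58 in endoderm and 4.91, 4.66 and 4.79 in mesenchyme, a difference of 5.04 ± 0.21. Hnf4a, a nuclear receptor of the enterocyte programme, differed by 4.73 ± 0.22, from 10.52, 10.30 and 10.41 to 5.22, 5.62 and 6.21, and by 0.98 (adjusted p = 0.0372) with unshared probe sets. Cdx1, the relative of Cdx2, stayed low in both layers, at 5.13 to 5.27 in endoderm, and differed by only 0.78. The nuclear receptor Nr5a2 (3.61), the progenitor factor Sox9 (3.38) and Onecut1 (1.28) were called, while Pdx1, which marks duodenum and pancreas, was at 4.78 to 5.13 in endoderm and was not called (0.32, adjusted p = 0.0533). That call is unsettled: Pdx1 passed with the median of its probe sets (0.78, adjusted p = 0.00213), after quantile normalization (0.0296), after centring (0.017), with trend and robust variance (0.0496), and without endoderm replicate 3 (0.0265) or mesenchyme replicate 2 (0.0498). Sox17, a factor of early endoderm and of endothelium, was higher in mesenchyme by 1.47, and the endothelial genes there were too. Of 9 general epithelial factors 8 were called, among them Klf5 (5.84, and 3.04 with unshared probe sets), Grhl2 (4.38, and 0.42 to 0.64 in its other probe sets) and Elf3 (3.75), and Klf4 was not (-0.11).

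Promoter sequences of 2 of these regulators are shown because they hold a forkhead motif, the kind of site that Foxa proteins bind. RefSeq promoters (GRCm38.p6) were searched over the 250 bases before the start for TGTTTAC on both strands. Of the 26 regulators 18 had an entry in that set, and 2 of these genes, Foxa1 and Cdx2, held a match. The motif was in 3.17% of the 32851 promoters searched, where a gene can have several. The match begins 141 bases before the start of Foxa1 and 40 bases before that of Cdx2. Capitals mark the motif, here on the opposite strand.
Foxa1, chr12:57546112-57546361, minus strand: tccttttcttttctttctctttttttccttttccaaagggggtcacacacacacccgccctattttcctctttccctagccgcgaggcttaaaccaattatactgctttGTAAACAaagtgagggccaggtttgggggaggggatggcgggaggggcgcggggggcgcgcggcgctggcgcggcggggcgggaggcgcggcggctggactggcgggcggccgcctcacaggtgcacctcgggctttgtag
Cdx2, chr5:147307250-147307499, minus strand: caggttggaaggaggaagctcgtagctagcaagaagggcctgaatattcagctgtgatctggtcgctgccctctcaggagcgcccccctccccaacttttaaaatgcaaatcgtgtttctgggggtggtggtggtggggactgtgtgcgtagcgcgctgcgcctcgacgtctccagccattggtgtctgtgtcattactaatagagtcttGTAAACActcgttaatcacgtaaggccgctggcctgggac
Both genes were more than 5 log2 units higher in endoderm. A match describes letters in a window and is no evidence of binding.

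Adhesion genes gave the largest median of any list. Of 31 tested genes, 29 were higher in endoderm, 1 in mesenchyme and 1 was not called, with a median of 3.89. Cdh1, E-cadherin of the adherens junction, gave 10.64, 10.88 and 10.70 in endoderm and 4.94, 5.33 and 5.29 in mesenchyme, a difference of 5.55 ± 0.13. Cdh17, a cadherin of liver and intestine, differed by 5.55 too and was near background in mesenchyme. The catenins that tie cadherins to actin were expressed in both layers: Ctnna1 differed by 0.47 and Ctnnd1 by 0.66. Tight junction genes split in the same way between membrane proteins and scaffold. Cldn8 (4.91), Cldn6 (5.14), Ocln (5.10) and Marveld2 (4.48), which seal the space between cells, were far higher in endoderm, and the scaffold gene Tjp1 differed by 0.33 with an adjusted p of 0.0495. That call was lost with the replicate block (adjusted p = 0.0844) and without any of the 3 mesenchyme arrays or endoderm replicate 3 or 4 (0.0532 to 0.164). Cldn15, a pore-forming claudin of the mature intestine, was the single member higher in mesenchyme (-0.75), from 5.01 to 5.36 in endoderm and 5.76 to 6.25 in mesenchyme.

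Desmosome and keratin genes followed. Among 8 desmosome genes 7 were called, led by Dsc2 (5.64 ± 0.09) and Dsp (4.28), and Evpl was not (0.43, adjusted p = 0.0541). Evpl passed with the replicate block (adjusted p = 0.0314) and without endoderm replicate 3 (0.0475) or 4 (0.0415). All 6 keratins were called. Krt8 differed by 4.95, Krt18 by 4.46, Krt19 by 3.89 and Krt20, a keratin of differentiated enterocytes, by 4.55, and Krt20 already gave 9.39, 9.15 and 8.97 in endoderm. Krt8 and Krt18 kept 7.07 to 7.84 in mesenchyme.

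Every tested gene of epithelial polarity, membrane proteases and epithelial splicing was higher in endoderm, 22 of 22 with a median of 3.22. Esrp1, a splicing regulator of epithelial isoforms, gave 10.24, 10.04 and 10.05 against 3.74, 4.52 and 4.56, a difference of 5.84 ± 0.21, and Esrp2 differed by 3.98. The membrane serine protease Tmprss2 differed by 5.26, its relative St14 (matriptase) by 4.01, and the inhibitor Spint1 by 4.93. The apical trafficking motor Myo5b (4.63) and Mal2 (4.22) were near background in mesenchyme. The list has no member that was called for mesenchyme or left uncalled.

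Several genes of the mature absorptive cell were already higher in endoderm before villi form. Of 9 tested enterocyte genes 8 were higher in endoderm and none in mesenchyme, with a median of 2.91. Vil1, villin of the microvillus core, gave 9.59, 9.62 and 9.63 in endoderm and 3.74, 4.05 and 4.41 in mesenchyme, a difference of 5.55 ± 0.16. Fabp2, the intestinal fatty acid binding protein, differed by 5.29 (9.57, 9.39 and 9.19 in endoderm), its liver type Fabp1 by 4.01 and the peptidase Anpep by 3.65. The sugar transporter Slc5a1 was low at 5.69 to 6.05 in endoderm, though called (1.70), and the fructose transporter Slc2a5 was not (-0.14). The genes Lct, Slc2a2, Slc15a1, Fabp6, Mep1b and Treh were on the array but were not above the lower signal range in 3 arrays, so they were not tested.

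Secretory genes did not follow one layer. Of 17 tested enteroendocrine and secretory genes, 6 were higher in endoderm, 6 in mesenchyme and 5 were not called. Tff3, a goblet cell trefoil peptide, was higher in endoderm by 2.79, with 8.44, 7.99 and 7.51 against 4.95, 4.93 and 5.68. Fcgbp (1.17), Spdef (1.18) and the hormone gene Sct (1.05) were called the same way. The granin-family genes Scg3 (-2.17) and Chgb (-1.51), the peptide gene Cck (-2.02) and the factor Insm1 (-1.33) were higher in mesenchyme, where neuronal genes were higher too. Gcg, proglucagon, was not called (-1.10, adjusted p = 0.122): it gave 5.64, 5.02 and 5.17 in endoderm and 4.92, 7.22 and 7.0 in mesenchyme, where replicate 2 was apart from the others. Without mesenchyme replicate 2 the difference was -1.83 with an adjusted p of 0.000316. Neurog3, Neurod1 and Atoh1, which start these lineages, were among 8 genes not tested.

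Endoderm was higher for a group of genes better known from yolk sac and liver. Of 19 tested genes for plasma proteins, apolipoproteins and their endocytic receptors, 14 were higher in endoderm, 2 in mesenchyme and 3 were not called, with a median of 2.29 (4.18 over the 13 left by a filter at the 50th percentile). Afp, alpha-fetoprotein, gave 9.99, 9.74 and 9.85 in endoderm and 3.56, 4.16 and 4.35 in mesenchyme, a difference of 5.84 ± 0.19. Rbp4 (5.97), the antitrypsin gene Serpina1b (5.44), Apob (4.44), Ttr (4.22), Ambp (4.18), Apoa1 (4.16) and the endocytic receptor Cubn (4.75) were higher as well. Plasma proteins and apolipoproteins differed in this. Of 8 tested plasma proteins 7 were higher in endoderm, with a median of 4.2. Of 7 tested apolipoproteins, 4 were higher in endoderm, 1 in mesenchyme and 2 were not called, with a median of 0.34. Not every liver gene was higher: Ahsg (0.14) and Apoa2 (0.00) were not called. On the array but not tested were Alb, Fga, Fgg, Vtn, Apoc1, Apoc2, Apoc3, Apoh and Lrp2. Apoe (-1.30) and the adaptor Dab2 (-2.30) were higher in mesenchyme.

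Hedgehog ligands and their response genes lay in opposite layers. Hedgehog proteins leave the epithelium, bind Ptch1 on the receiving cell and act through Gli factors, and Ptch1, Hhip and Gli1 are themselves induced by the signal. Of 16 tested genes, 2 were higher in endoderm, 10 in mesenchyme and 4 were not called, and the 2 were the ligands. Ihh gave 9.02, 8.72 and 8.70 in endoderm and 4.19, 4.31 and 4.97 in mesenchyme, a difference of 4.32 ± 0.20. Shh gave 6.92, 8.81 and 8.90 against 4.35, 4.43 and 4.47, a difference of 3.79 ± 0.46 with an adjusted p of 0.00019. Shh was low in endoderm replicate 2, and without that array the difference was 4.44. Both ligands were near background in mesenchyme.

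On the receiving side, Ptch1 was present in both layers and higher in mesenchyme, with 9.53, 9.36 and 9.64 in endoderm and 11.67, 11.72 and 11.75 in mesenchyme, a difference of -2.20 ± 0.10. The co-receptor Gas1 (-4.02), the ligand-trapping Hhip (-2.70) and Boc (-0.82) were higher in mesenchyme, while the transducer Smo was not called (-0.38, adjusted p = 0.0524). With the replicate block, which pairs pools of the same number, Smo passed (adjusted p = 0.0149), and it also passed without endoderm replicate 2 (-0.53, adjusted p = 0.00349). Gli1 gave 4.95, 4.71 and 4.80 in endoderm and 8.36, 8.64 and 8.48 in mesenchyme, a difference of -3.67 ± 0.11. Gli2 (-4.25) and Gli3 (-1.09) had the same direction, and the forkhead targets Foxf1 (-3.68), Foxf2 (-4.24) and Foxl1 (-0.56) did too. Foxl1 was at 5.33 to 5.43 in mesenchyme, just above 4.69 to 4.98 in endoderm.

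**Figure D3:**
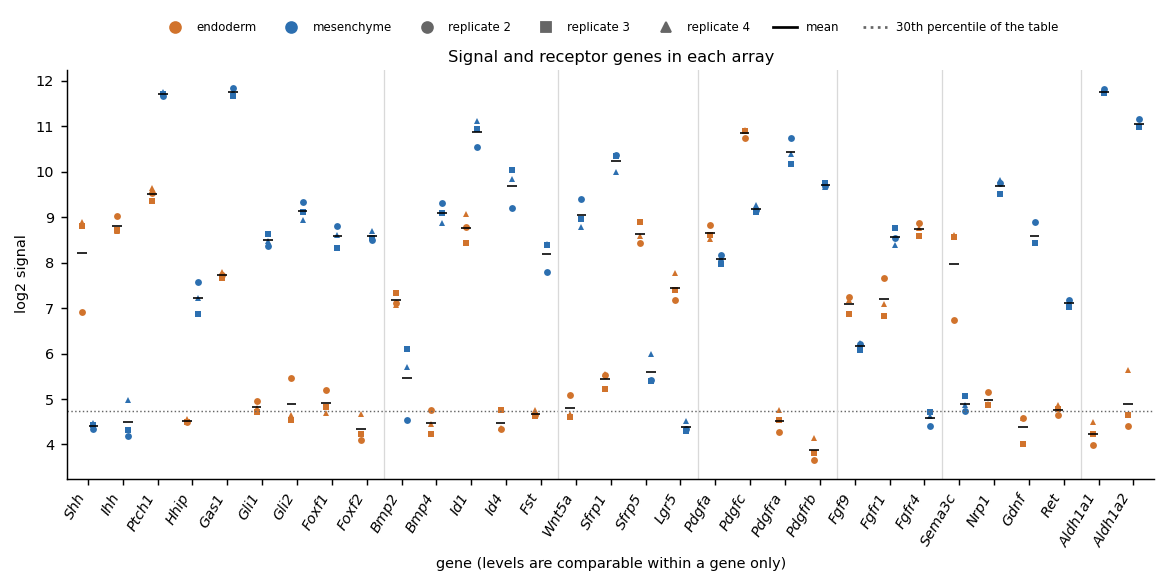
Log2 signal (y axis) of 31 signal and receptor genes (x axis) in each of the 6 arrays, with endoderm in orange, mesenchyme in blue, a symbol for each replicate number and a line at each mean. The dotted line is the 30th percentile of the table, 4.74. Hedgehog ligands Shh and Ihh sit near that line in mesenchyme and their response genes Gli1, Gli2, Foxf1 and Foxf2 near it in endoderm, and levels are comparable within a gene only.

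BMP ligands and their antagonists were mostly higher in mesenchyme. Of 28 tested genes, 19 were higher in mesenchyme, 1 in endoderm and 8 were not called, with a median of -0.73. Bmp4 gave 4.75, 4.24 and 4.46 in endoderm, near background, and 9.32, 9.09 and 8.88 in mesenchyme, a difference of -4.61 ± 0.16. Bmp5 (-1.95) and Gdf10 (-2.44) were higher there too, and Bmp2 was the exception (1.72 ± 0.35): it gave 7.12, 7.34 and 7.07 in endoderm and 4.54, 6.11 and 5.71 in mesenchyme. Bmp7 was not called, with a difference of 0.00, but the median of its probe sets was higher in endoderm (0.42, adjusted p = 0.0155). All 8 tested antagonists and decoys were higher in mesenchyme, with a median of -0.86 and a range of -3.53 to -0.35, led by Fst (-3.53), Fstl1 (-2.35), Grem1 (-1.84) and Nog (-1.06). The response genes Id4 (-5.21), Id1 (-2.11) and Id3 (-1.72) were higher in mesenchyme and Id2 was not called (0.14). The type I receptor Bmpr1a (-0.67) was higher in mesenchyme, and Smad1 and Smad4 were not called.

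TGF-beta genes were divided. All 3 TGF-beta ligands were higher in mesenchyme, Tgfb2 by 3.32, Tgfb3 by 3.01 and Tgfb1 by 1.81, and so was the type II receptor Tgfbr2 (-1.87). Tgfbi, a matrix protein induced by TGF-beta, gave 5.67, 5.63 and 6.37 in endoderm and 11.89, 11.81 and 11.94 in mesenchyme, a difference of -5.99 ± 0.19. The activin receptors Acvr1b (2.20, but 0.07 in another probe set) and Acvr2b (0.82) were higher in endoderm instead. Tgfbr1 and Smad2 were not called.

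Of 40 tested Wnt pathway genes, 9 were higher in endoderm, 18 in mesenchyme and 13 were not called. Wnt5a, a ligand that acts largely outside the beta-catenin route, gave 5.09, 4.61 and 4.68 in endoderm and 9.41, 8.97 and 8.79 in mesenchyme, a difference of -4.26 ± 0.18. Of 16 listed Wnt ligands 7 were tested, and none of the 7 was called higher in endoderm: Wnt4 (-0.64) and Wnt5b (-0.45) were higher in mesenchyme, and Wnt6, Wnt7b, Wnt10b and Wnt11 were not called. Secreted modulators were divided between the layers. Sfrp1 (-4.81), Dkk2 (-3.82), Rspo1 (-2.53) and Sfrp2 (-2.32) were higher in mesenchyme, and Sfrp5 was higher in endoderm by 3.04, from 8.44, 8.90 and 8.58 to 5.41, 5.39 and 6.00. Lgr5, an R-spondin receptor and later a stem cell marker, gave 7.18, 7.40 and 7.78 in endoderm and 4.34, 4.30 and 4.52 in mesenchyme (3.07 ± 0.15). Frizzleds divided as well, with Fzd5 (0.67) and Fzd6 (0.97) higher in endoderm and Fzd4 (-1.78), Fzd8 (-1.39), Fzd1 (-1.31) and Fzd2 (-1.14) higher in mesenchyme. The general feedback target Axin2 was not called (-0.07), the crypt factor Ascl2 was higher in endoderm by 1.07, and Nkd1 was higher in mesenchyme (-1.51).

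Receptor tyrosine kinase pathways showed ligand and receptor in different layers for PDGF. Pdgfc gave 10.74, 10.89 and 10.92 in endoderm and 9.15, 9.11 and 9.28 in mesenchyme (1.67 ± 0.09), and Pdgfa differed by 0.57. Their receptor Pdgfra gave 4.27, 4.53 and 4.75 in endoderm, near background, and 10.75, 10.17 and 10.40 in mesenchyme (-5.92 ± 0.17), and Pdgfrb differed by -5.83. Both ligands were thus present in both layers, while the receptors were near background in endoderm. For the IGF axis, Igf1 was higher in mesenchyme by 4.82 and Igf1r by 1.56, whereas Igf2 was not called (0.09 ± 0.09, adjusted p = 0.446), at 13.04 to 13.25 in the 6 arrays. Igfbp3 (-4.13) and Igfbp5 (-1.36) were higher in mesenchyme.

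FGF and ERBB genes were divided between the layers. Fgfr4 gave 8.88, 8.59 and 8.76 in endoderm and 4.41, 4.71 and 4.63 in mesenchyme (4.16 ± 0.12), and Fgfr3 differed by 1.82. Fgfr1 was higher in mesenchyme (-1.37) and Fgfr2 was not called (-0.10, and -0.53 with an adjusted p of 0.0499 for the median of its probe sets). The ligand Fgf9 was higher in endoderm by 0.92 and Fgf13, an intracellular family member, was higher in mesenchyme by 3.39, and Fgf7 and Fgf10 were not tested. Erbb3 was higher in endoderm by 1.68, the ligands Hbegf by 3.21 and Tgfa by 1.92, and the feedback inhibitor Errfi1 by 2.92. Other probe sets differed by less for 2 of these genes, at 0.39 for Erbb3 and 0.0 to 0.2 for Tgfa. Kit (-1.02) and its ligand Kitl (-1.16) were both higher in mesenchyme.

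Notch genes were called in 1 direction. Of 20 tested, none was higher in endoderm, 12 were higher in mesenchyme and 8 were not called, with a median of -0.48. The vascular receptor Notch4 (-2.05), the ligands Dll1 (-1.87) and Jag1 (-1.63), the non-canonical ligand Dlk1 (-3.49) and the target Hey1 (-2.16) differed most. Notch1, with 8.80, 8.14 and 8.03 in endoderm and 8.41, 8.31 and 8.21 in mesenchyme, was not called (0.01), and neither was Hes1 (-0.19). With each array centred on its median, 1 gene of the list was called higher in endoderm, the ligand Jag2 (0.27, adjusted p = 0.0244). Jag2 was also called after quantile normalization (0.28), and Hes6 with the median of its probe sets (0.24). Endothelial and neural markers moved the same way as these genes, and their part in the Notch differences was not tested. Ephrins and Eph receptors were mixed, with 3 genes higher in endoderm, 6 in mesenchyme and 7 not called: Epha2 (2.38) and Epha1 (1.52) led endoderm, and Epha3 (-1.49), Efna3 (-1.30) and Ephb3 (-1.06) were higher in mesenchyme.

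Of 24 tested genes that guide axons and vessels, 16 were higher in mesenchyme and 4 in endoderm. Receptors made up much of this: 8 of 9 receptors were higher in mesenchyme and none in endoderm, against 8 and 4 of 15 ligands. Ntn1, netrin 1, gave 4.08, 4.23 and 4.33 in endoderm and 9.60, 9.50 and 9.39 in mesenchyme (-5.28 ± 0.10), and Sema3a (-4.16) and Slit2 (-3.97) followed. Gdnf (-4.2), which draws neural crest cells into the gut, and its receptors Gfra1 (-4.14) and Ret (-2.35) were all higher in mesenchyme, as were Edn3 (-1.35) and its receptor Ednrb (-4.58). The 4 ligands higher in endoderm were the semaphorins Sema3c (3.08), Sema4g (2.46), Sema3b (2.36) and Sema4a (1.20). Sema3c gave 6.75, 8.56 and 8.60 in endoderm, low in replicate 2 as Shh was, and 4.74, 5.07 and 4.86 in mesenchyme. Without that array its difference was 3.69. Its receptor Nrp1 was higher in mesenchyme (-4.73).

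Over 42 ligand and receptor pairs, 8 had both genes called in opposite layers and 13 had both called in the same layer. The other 21 had at least 1 gene not called, not tested or not on the array. In all 8 opposite pairs the ligand was the endodermal gene: Shh and Ihh with Ptch1, Shh with Hhip, Pdgfa and Pdgfc with Pdgfra, Fgf9 with Fgfr1, Vegfa with Kdr, and Sema3c with Nrp1. These pairs share genes, so they are not 8 separate observations, and 53.1% of all tested genes were called. Other pairs could not be placed because a gene was not tested or not on the array. They include Hgf with Met, Fgf7 and Fgf10 with Fgfr2, and Nrg1 with Erbb3. The direction of the 8 pairs is therefore limited to the pairs that could be placed. Pairs within mesenchyme included Gdnf with Ret and Gfra1, Edn3 with Ednrb, Kitl with Kit, Igf1 with Igf1r, Slit2 with Robo1 (-3.27) and Bmp4 with Bmpr1a. Lama5 with Itga6 (1.52) was the single pair called within endoderm. Vegfa differed by only 0.45, against -3.79 for its endothelial receptor Kdr, and was not called with the median of its probe sets (0.21, adjusted p = 0.15).

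Genes of retinoic acid synthesis were higher in mesenchyme and retinol carriers in endoderm. Retinoic acid is made from retinol by retinol dehydrogenases and then by Aldh1a enzymes. Aldh1a2 gave 4.40, 4.64 and 5.63 in endoderm and 11.16, 10.99 and 11.01 in mesenchyme (-6.16 ± 0.28), beside the -7.53 of Aldh1a1, and Rdh10 (-2.68) and the receptor gene Stra6 (-1.31) had the same direction. Rbp4 (5.97) and, at low signal, Rbp2 (0.38, adjusted p = 0.0155) were higher in endoderm, and Rbp2 did not pass without mesenchyme replicate 4 (0.33, adjusted p = 0.0662). Of the nuclear receptors Rarb was higher in mesenchyme (-1.25), and Rara, Rarg and Rxra were not called. The breakdown enzyme Cyp26a1 was at 4.67 to 5.22 in all 6 arrays and was not called (0.03). Aldh1a2 is known from mesothelium as well. Of 4 tested mesothelial genes, Aldh1a2, Upk3b (-3.03) and Wt1 (-1.80) were higher in mesenchyme and Cfb was higher in endoderm (1.74).

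Mesenchymal transcription factors formed a large block. Of 39 tested, 28 were higher in mesenchyme, 3 in endoderm and 8 were not called, with a median of -1.66 (-2.91 over the 27 left by a filter at the 50th percentile). Tcf21 gave 5.20, 4.72 and 5.81 in endoderm and 11.84, 11.59 and 11.79 in mesenchyme (-6.50 ± 0.24), and Meis2 (-5.30), Zeb2 (-4.87), Snai2 (-4.80), Nr2f1 (-4.51), Hlx (-4.00) and Zeb1 (-4.00) followed. Nkx2-3, a homeobox gene of midgut and hindgut mesenchyme, differed by -2.93. Twist1, used as a marker, was low in mesenchyme itself, at 4.92 to 5.56, and its relative Twist2 was at 7.40 to 7.50.

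The 3 factors of that list that were higher in endoderm were Prdm1 (4.2), Osr2 (3.77) and Pitx1 (3.28). Prdm1, also called Blimp1 and known to repress adult enterocyte genes in the fetal gut, gave 9.60, 8.90 and 9.32 in endoderm and 4.42, 5.49 and 5.31 in mesenchyme. Osr2 gave 7.74, 8.68 and 8.65 against 4.19, 4.73 and 4.83, while its paralog Osr1 was higher in mesenchyme (-2.44). Pitx1, a hindlimb and hindgut homeobox gene, gave 8.98, 8.08 and 7.96 against 4.94, 4.98 and 5.25. For each of the 3 genes the arrays of the layers did not overlap, which also held for 62.0% of all tested genes and 4973 of the 5010 called.

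Hox genes of the anterior and middle groups marked the mesenchyme. Of 18 tested Hox genes, 16 were higher in mesenchyme, none in endoderm and 2 were not called, with a median of -2.92. Hoxa5 gave 5.48, 5.26 and 5.31 in endoderm and 10.81, 10.42 and 10.64 in mesenchyme (-5.27 ± 0.12). Hoxc8 (-4.77) and Hoxb5 (-4.55) were next, both near background in endoderm. The 3 tested genes of paralog group 9 differed least: Hoxa9 (-0.09) and Hoxc9 (-0.20) were not called and Hoxd9 was (-0.44, adjusted p = 0.0419). The call of Hoxd9 was lost without mesenchyme replicate 2 or 4 or endoderm replicate 3 or 4 (adjusted p = 0.0538 to 0.136). It was also lost after quantile normalization and with each array centred on its median. A second probe set of Hoxa9 differed by -1.12. Another 13 Hox genes on the array were too dim to be tested, and they included all 9 genes of groups 10 to 13 that are on the array. Hoxc10, Hoxc11 and Hoxc12 are not among its named genes. The Hox cofactor genes Meis1 (-2.45) and Pbx3 (-3.29) were higher in mesenchyme.

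**Figure D4:**
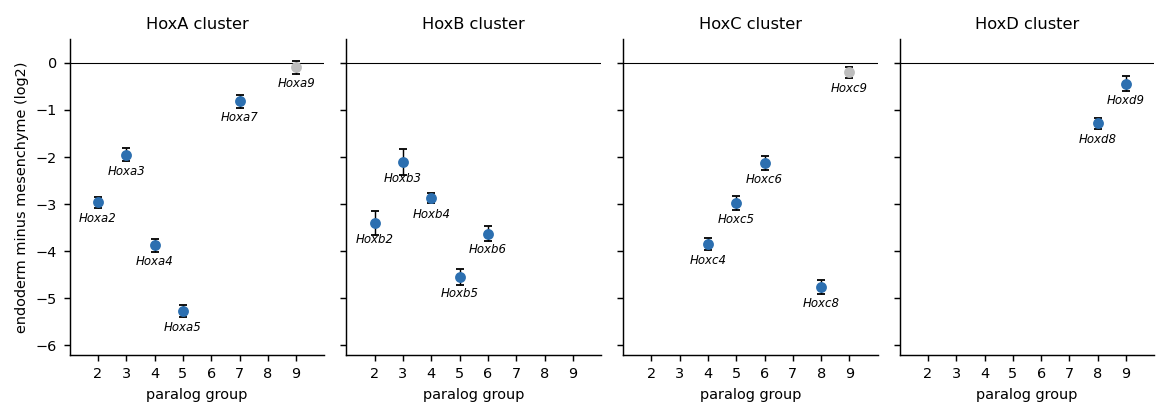
Endoderm minus mesenchyme difference in log2 (y axis, point, with its standard error as a bar) of the 18 tested Hox genes, by cluster (panels) and paralog group (x axis). Blue points were called higher in mesenchyme and grey points were not called, and the differences reach -5.27 at Hoxa5 but lie between -0.44 and -0.09 in group 9.

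Smooth muscle genes gave the lowest median of any list, -3.95: 20 of 22 tested were higher in mesenchyme, 1 in endoderm and 1 was not called. Smooth muscle contracts through the actin of Acta2 and Actg2, the myosin of Myh11 and Myl9, and regulators such as Mylk and Cnn1, and many of these genes are switched on by Srf with its partner Myocd. Acta2 gave 6.63, 7.65 and 8.36 in endoderm and 13.68, 13.63 and 13.63 in mesenchyme (-6.10 ± 0.36). The mesenchyme arrays were close together, and in endoderm the gene was lowest in replicate 2 and highest in replicate 4. Myl9 (-6.07), Cnn1 (-5.79), Mylk (-5.76), Tpm2 (-5.64, and -0.73 with unshared probe sets) and Tagln (-4.34) followed, and Des was higher by less (-1.68). Myocd gave 4.15, 4.11 and 4.73 in endoderm and 10.06, 9.57 and 9.78 in mesenchyme (-5.47 ± 0.19), whereas Srf, which acts in many cell types, was at 8.96 to 9.69 in the 6 arrays and was not called (-0.36, adjusted p = 0.0716). Srf passed with the replicate block (adjusted p = 0.0157) and without mesenchyme replicate 2 (-0.52, adjusted p = 0.0123). The LIM gene Csrp2 was the exception, higher in endoderm by 1.38 with 11.10, 11.01 and 10.93 against 9.60, 9.65 and 9.64.

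Srf binds the CArG box, and promoters of contractile genes that hold one are shown for that reason. The 250 bases before the start were searched on both strands for the strict CArG box. Of 19 tested contractile and cytoskeletal genes, 15 had a RefSeq promoter (GRCm38.p6) in the same set as above, and 3 held a match. The box was in 1.47% of the 32851 promoters searched. They were Myl9, Cnn2 and Vcl, with a match that begins 161, 56 and 227 bases before the start. Capitals mark the CArG box.
Myl9, chr2:156775214-156775463, plus strand: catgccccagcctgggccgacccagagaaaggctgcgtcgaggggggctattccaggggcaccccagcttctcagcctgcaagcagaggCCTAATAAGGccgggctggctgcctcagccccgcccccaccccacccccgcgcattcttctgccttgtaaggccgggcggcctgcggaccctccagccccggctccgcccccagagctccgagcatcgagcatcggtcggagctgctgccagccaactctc
Cnn2, chr10:79988350-79988599, plus strand: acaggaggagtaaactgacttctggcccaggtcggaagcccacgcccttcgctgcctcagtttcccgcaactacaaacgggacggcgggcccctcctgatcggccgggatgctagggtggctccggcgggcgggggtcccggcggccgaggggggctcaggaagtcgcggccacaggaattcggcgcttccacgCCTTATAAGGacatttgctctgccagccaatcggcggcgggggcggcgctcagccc
Vcl, chr14:20929148-20929397, plus strand: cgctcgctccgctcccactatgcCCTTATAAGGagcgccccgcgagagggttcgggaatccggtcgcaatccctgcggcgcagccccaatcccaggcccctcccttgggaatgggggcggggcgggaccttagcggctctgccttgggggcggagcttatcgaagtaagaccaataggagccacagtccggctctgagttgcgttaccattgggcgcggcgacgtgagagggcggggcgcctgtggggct
Their differences between the layers were -6.07, -3.55 and -1.57, and other contractile genes with larger or equal differences had no match in this window. A search for the GLI letters GACCACCCA found no match in promoters of 11 hedgehog pathway genes, and one for the HNF1 motif none in those of 17 plasma protein and yolk-sac-like genes. These motifs are in 0.225% and 0.00913% of the promoters searched.

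Interstitial matrix was nearly all mesenchymal. Of 43 tested genes, 39 were higher in mesenchyme, none in endoderm and 4 were not called, with a median of -2.91. All 12 fibrillar and associated collagens were among the 39. Col1a1 gave 4.92, 5.13 and 5.42 in endoderm and 11.82, 11.71 and 11.37 in mesenchyme, and Col6a1 (-6.24), Col1a2 (-5.98), Col3a1 (-5.73) and Col6a2 (-5.73) were similar in size. Col3a1 kept 6.96, 7.75 and 8.58 in endoderm, highest in replicate 4. Among glycoproteins, Fbn2 (-5.69), Emilin1 (-5.05), Dcn (-4.86) and Postn (-4.71) were higher in mesenchyme, and Postn stood at 4.80, 4.87 and 6.43 in endoderm. Fibronectin, Fn1, was not called: it gave 10.76, 10.50 and 10.59 in endoderm and 10.78, 10.48 and 10.42 in mesenchyme (0.06 ± 0.12). Of the proteases, Mmp2 differed by -5.49 and Mmp14 by -0.82. Without endoderm replicate 2, 2 genes of the list were called higher in endoderm, Adamts1 (0.44, adjusted p = 0.00702) and Fbln1 (0.33, adjusted p = 0.0137), and Fbln1 was also called with each array centred on its median (0.36).

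Genes of the basement membrane, the sheet between the layers, were divided. Of 26 tested genes, 7 were higher in endoderm, 16 in mesenchyme and 3 were not called. Laminin chains divided by type. Lama1 gave 8.51, 8.30 and 8.40 in endoderm and 5.91, 5.62 and 5.69 in mesenchyme (2.66 ± 0.11), and Lamb3 (2.06) and Lama5 (0.93) were also higher in endoderm. Lama4, a chain of vessels and muscle, was higher in mesenchyme by 3.65, and the shared chains Lamb1 and Lamc1 by 0.78 and 0.73. The laminin binders Nid1 (-5.18) and Nid2 (-4.03) and the network collagens Col4a2 (-2.79) and Col4a1 (-2.35) were higher in mesenchyme, whereas perlecan, Hspg2 (-0.16), and agrin, Agrn (0.13), were not called. Integrins followed with Itgb6 (2.89) and Itga6 (1.52) in endoderm and Itga8 (-3.55), Itga5 (-2.18) and Itga9 (-2.01) in mesenchyme.

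Genes of vessels, nerves and blood were higher in mesenchyme. Of 19 tested endothelial genes 18 were higher there, none in endoderm, and Erg was not called. Kdr gave 4.82, 4.87 and 5.0 in endoderm and 8.94, 8.58 and 8.55 in mesenchyme (-3.79 ± 0.12), and Cd34 (-3.65), Emcn (-3.50) and Pecam1 (-3.47) had similar differences. Of 22 tested neural crest genes 20 were higher in mesenchyme. Fabp7, of glial progenitors, differed by -5.0, the neurofilament Nefm by -4.95, the neuronal tubulin Tubb3 by -4.60 and Sox10 by -2.56. Vip (-2.25), Gal (-1.87) and Cartpt (-3.41), neuropeptides of enteric neurons, were higher too, and Th was not called (0.00). Erbb3, known both from glial progenitors and from epithelium, was the 1 gene of this list higher in endoderm.

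Red cell genes were led by embryonic globins. Hbb-y gave 8.25, 8.10 and 8.41 in endoderm and 13.58, 13.49 and 13.54 in mesenchyme (-5.28 ± 0.10), and Hba-x and Hbb-bh1 (-3.68) had the same direction. Of 6 other erythroid genes, Alas2 (-1.33) and Slc4a1 (-0.70) were higher in mesenchyme, Tspan33 was higher in endoderm (0.47) and 3 were not called. Without probe sets marked as shared between transcripts, Tspan33 was not called (0.11, adjusted p = 0.562). Of 14 leukocyte genes 12 were higher in mesenchyme, led by Csf1r (-2.86), and Ptprc was too dim to be tested.

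Proliferation genes hardly separated the layers. Of 31 tested cell cycle genes, 5 were higher in endoderm, 6 in mesenchyme and 20 were not called, with a median of 0.08, so the share called was below that of all genes. Without mesenchyme replicate 4, and likewise without endoderm replicate 4, 3 were called higher in endoderm, and with each array centred on its median 10 were. Among 12 S phase genes 3 were called, among them Cdc6 (0.49) and Mcm7 (0.34, and 0.25 with an adjusted p of 0.118 for the median of its probe sets), and Pcna, with 12.29, 12.78 and 12.75 in endoderm and 12.53, 12.59 and 12.64 in mesenchyme, was not (0.02). Among 12 mitosis genes 1 was called in each direction, Ccnb2 towards mesenchyme (-0.39), and Mki67 (-0.16) and Top2a (0.12) were not called. Cell cycle inhibitors differed more. Cdkn1a, p21, was higher in endoderm by 2.75 ± 0.13, with 8.93, 8.69 and 8.65 against 5.78, 6.15 and 6.08. The imprinted inhibitor Cdkn1c, p57, was higher in mesenchyme by 2.12 ± 0.12, with 10.19, 9.78 and 9.87 against 12.11, 12.12 and 11.98.

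Imprinted growth genes were mostly higher in mesenchyme, 9 of 15 tested against 2 in endoderm. Mest gave 5.15, 5.43 and 6.00 in endoderm and 12.21, 12.07 and 12.07 in mesenchyme (-6.59 ± 0.20), followed by Sgce (-3.63), Dlk1 (-3.49), Plagl1 (-2.52) and Ndn (-2.30). Peg3 was higher in endoderm by 0.95, with 12.35, 11.95 and 12.04 against 11.42, 10.98 and 11.10, and so was Ascl2. Igf2, Igf2r and Snrpn were among the 4 not called.

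Immediate-early and heat shock genes, which respond within minutes to stress, were called about as often as other genes. Of 21 tested, 3 were higher in endoderm (14.3%, against 27.7% of all genes), 7 in mesenchyme (33.3%, against 25.4%) and 11 were not called. Fos (-1.31), Fosb (-2.48) and Nr4a1 (-1.37) were higher in mesenchyme, and Atf3 (1.62) and Jun (0.75) in endoderm. Hspa1a differed between pools more than between layers, with 8.43, 10.62 and 10.01 in endoderm and 9.31, 10.97 and 11.05 in mesenchyme (-0.76 ± 0.62, adjusted p = 0.339). With the replicate block, which takes out the differences between pools, it passed (adjusted p = 0.00571). Replicate 2 was lowest in both layers.

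The separate pair of pools from 35 fetuses had the same direction for nearly all large differences. Of 2615 genes called higher in endoderm 2493 (95.3%) were higher there in the pair, and of 2395 called higher in mesenchyme 2229 (93.1%) were. At a difference of at least 2 the direction was the same for every called gene, and between 1 and 2 for 489 of 492 and 535 of 536. Among genes not called it was the same for 2817 of 4432 (63.6%). The pair has 1 array a layer, in a table normalized on its own, so these values carry no test. Ihh gave 9.82 and 6.38 in the pair, Gli1 5.76 and 8.26, Aldh1a1 5.67 and 11.22 and Lgals2 12.20 and 6.20 (endoderm, then mesenchyme), and each kept its direction.

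**Figure D5:**
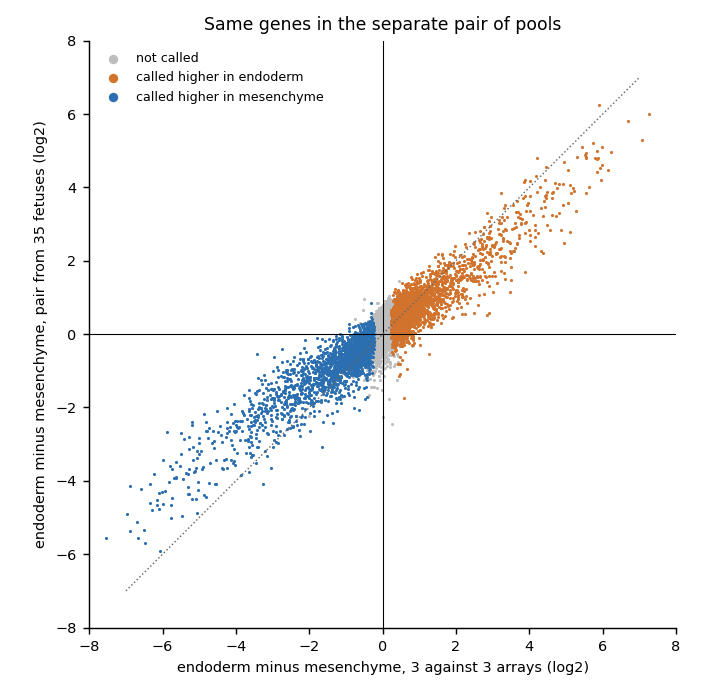
Endoderm minus mesenchyme difference in log2 in the pair of pools from 35 fetuses (y axis) against the difference of 3 against 3 arrays (x axis) for the 9442 tested genes, with called genes coloured and equality as a dotted line. Points follow the line with a smaller slope at large differences, and Pearson's r across genes was 0.927, a description, since genes are not independent replicates.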

How the data were processed

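RNA was purified on RNeasy columns with DNase I treatment, per the labels' protocols, and hybridised to 1-colour oligonucleotide arrays. The authors deposited log2 signals per probe set, computed with RMA (background correction, quantile normalization and probe summary), per the submitters' processing notes; the software version was not given in the sources used here. Tables of 6 and 8 arrays were kept apart. Scanner files were not analysed here, so the scale was kept, and no count of molecules lies behind a signal: the number of arrays limits the precision. The annotation of the platform gave 1 symbol for 20393 of 22690 probe sets, several for 691 and none for 1555, and 51 were of the control class. Of the 20393, 20364 had an Entrez ID in RefSeq (GRCm38.p6), and 0 symbols needed an update.

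For each of 12394 genes the brightest probe set was used, by its mean of 6 arrays, and genes at or below 4.74 (the 30th percentile) in more than 3 arrays, 2952 in all, were not tested. The layers were compared with limma 3.58.1 in R 4.3.3 (lmFit and eBayes), with Benjamini-Hochberg adjustment over 9442 genes and a threshold of 0.05, on a procedure also tested on simulated data. The genes named are the 12 largest differences in each direction, the leading called members of each list, and other members needed to account for a list or pair. The members, lists and pairs were chosen with earlier results of these data known. The labels do not say that a replicate number marks a shared litter or day. Deviations from the layer means correlated at 0.211, 0.234 and 0.106 between arrays of the same number, so numbers 2, 3 and 4 were taken to pair the pools, although endoderm 3 and mesenchyme 4 correlated at 0.129, and the fit with that block is an alternative. Replicates are separate pools per the labels, and at most 377 of 12394 values were the same in any 2 arrays.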

Additional observations from a re-analysis of the deposited data

How the results depend on the processing

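The counts of genes called, in each direction and at a 4-fold difference, stayed within 1.5 times of the main counts under all 15 alternatives. Per gene, 5010 calls became 3961 with only probe sets not marked as shared, 4204 with a filter at the 50th percentile, 4726 with the median of a gene's probe sets, 5067 after quantile normalization, 5073 with a trend and robust variance, 5237 without a filter and 5275 with each array centred on its median. Over every probe set there were 6953 calls. Leaving out 1 array gave 4260 to 5242. Centring turned the split to 3308 higher in endoderm and 1967 in mesenchyme. With the replicate block 5089 genes were called (2647 and 2442), 4843 of them also without it and 0 with the opposite sign.

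Of 4672 gene and alternative combinations for the 342 genes named, 4623 kept their side of the threshold, 19 lost the call and 29 gained it. The 4623 include genes called in neither fit whose sign changed. Adamts1, for example, went from 0.16 to -0.04 without endoderm replicate 3. The 1 combination left was Bmp7, which moved from 0.00 to a called 0.42 when its probe sets were summarised by their median. The block changed no call among these genes other than those given beside Tjp1, Evpl, Smo, Srf and Hspa1a. The filter at the 50th percentile took list counts for mesenchyme from 12 to 3 (leukocyte genes) and from 6 to 2 (enteroendocrine), and that for endoderm from 9 to 5 (Wnt). Probe sets not marked as shared gave 2 in place of 5 mesenchymal calls for erythroid genes, 4 in place of 9 for imprinted genes and 2 in place of 5 endodermal calls for the cell cycle. The median of the enteroendocrine list changed sign, from -0.05 to 0.07 after centring, 0.04 after quantile normalization and 1.11 with the filter at the 50th percentile, and that of the cell cycle from 0.08 to -0.01 with unshared probe sets. The median of the pancreas and liver bud list went from -0.02 to 0.12 with unshared probe sets and 0.03 without endoderm replicate 3. After centring and after quantile normalization it was 0.1, and the list had 3 endodermal calls in place of 2. Without replication beyond 3 pools a layer, small differences near the threshold depend on single arrays. Genes near background in 1 layer have a difference set by the bottom of the signal range. The causes of these changes were not tested.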

Other observations

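The genes in this section were chosen after their values were seen. They are single genes with large differences, and no count over their families was made. The glucuronosyltransferase gene Ugt2b34 gave 10.51, 10.53 and 10.66 in endoderm and 4.83, 4.62 and 5.03 in mesenchyme, a difference of 5.74 ± 0.12 (SE, 3 arrays a layer). The reductase gene Akr1c13 (4.80), the sulfotransferase gene Sult1d1 (4.63), the cytochrome gene Cyp2s1 (3.72) and the glutathione peroxidase gene Gpx2 (2.90) were higher as well. The metallothioneins Mt1 (3.85) and Mt2 (3.63) had the same direction, and both were lowest in replicate 2 of each layer. Another probe set of Mt1 differed by only 0.32.

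Other genes with large differences code for channels and iron transport. Cftr, the chloride channel mutated in cystic fibrosis, gave 9.03, 9.12 and 9.05 in endoderm and 3.90, 3.59 and 4.02 in mesenchyme, a difference of 5.23, while its other probe set differed by 0.89. The potassium channel subunit gene Kcne3 (4.39), the iron exporter gene Slc40a1 (3.22) and the transferrin receptor gene Tfrc (3.18) followed.

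Some closely related genes lay in opposite layers. Prkg2, a cGMP-dependent protein kinase, gave 8.92, 9.07 and 9.0 in endoderm and 3.92, 4.03 and 3.91 in mesenchyme (5.04 ± 0.09). Its relative Prkg1, known from smooth muscle, gave 3.84, 3.98 and 3.87 in endoderm and 7.63, 7.46 and 7.55 in mesenchyme (-3.65 ± 0.09). Gucy1b1, a subunit of the soluble cyclase that makes cGMP, was higher in mesenchyme (-5.46). Among galectins, Lgals1 differed by -5.30, opposite to Lgals2 and Lgals4.

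A few inflammatory response genes varied more between pools than between layers. Nfkbiz, a regulator of NF-kappaB, gave 8.25, 9.93 and 9.29 in endoderm and 8.33, 9.92 and 9.31 in mesenchyme, so that replicate 3 was highest and replicate 2 lowest in both. The chemokine gene Cxcl10 had the same order, with 6.02, 7.51 and 6.49 in endoderm and 5.85, 8.67 and 7.07 in mesenchyme. Neither gene was called (adjusted p = 0.964 and 0.541).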
